A study of Mus musculus with 14 samples.

Results

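Connexin genes were examined in mouse hepatocellular carcinoma cells that lacked ATP-citrate lyase (ACLY), acyl-CoA synthetase short chain family member 2 (ACSS2), or both. The 6 genes described are Gja1, Gja4, Gjb1, Gjb2, Gjb5 and Gjc1, taken by symbol from the 24972 gene symbols listed with deposited values. Gja1 was picked because its values were far lower in the single knockouts than in WT, so its levels are given as a description with no test. The other members were taken as connexins of liver or as further members of the family. ACLY and ACSS2 are the enzymes that make cytosolic acetyl-CoA from citrate and from acetate.

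All cells came from a liver tumor line, obtained after diethylnitrosamine treatment of mice that carried floxed alleles of Acly, and every line carried the LentiCRISPR v2 vector. The WT cells (line D42V) and the ACLY KO cells (line D42C4V, treated with adenoviral Cre and grown from a single-cell clonal population) received the empty vector as bulk populations. The ACSS2 KO cells (line D42 Sg2-3) and the DKO1 cells, which lacked both enzymes (line D42C4 Sg2-2), were single-cell clones made with a guide against Acss2 in the WT and the ACLY KO background. Genotype and clone therefore cannot be told apart. Poly(A) RNA was sequenced after 24 hours in DMEM with 10% calf serum, with 4 libraries each for WT and ACLY KO and 3 each for ACSS2 KO and DKO1. The study calls the libraries biological replicates in a figure legend, but excepts RNA-seq from its statement that experiments were independently repeated. It does not say whether the libraries of a genotype came from separate cultures. The p-values therefore measure only the spread between these libraries, which may in part be technical. Unless stated otherwise, errors after ± are SDs, with n = 4 for WT and for ACLY KO and n = 3 for ACSS2 KO and for DKO1. Library totals lay between 23565707 and 26946164 normalized counts. In the single knockouts the targeted mRNAs followed the labels, with 1001 ± 56.1 normalized counts of Acly for ACLY KO against 6050 ± 423 for WT, and 132 ± 4.88 of Acss2 for ACSS2 KO against 237 ± 11.5 for WT. Acss2 mRNA was 535 ± 69.1 for DKO1 against 718 ± 56.7 for the ACLY KO background it was made from. It was thus lower than in that background but higher than in WT, so Acss2 mRNA alone does not mark DKO1 as lacking ACSS2. The paper detected no remaining ACSS2 protein in DKO cells. Of 8 hepatocyte marker genes only 3 (Alb, Apob and Hnf4a) reached the minimum mean for testing, and Apoa1, Ahsg and Serpina1a were below 3 normalized counts in every library. Ttr and Trf were highest in single genotypes, Ttr at 25.0 to 39.7 in ACSS2 KO and Trf at 12.3 to 18.5 in WT. All 5 biliary markers were tested, and Krt7 and Krt19, keratins of bile duct cells, each had 3859.7 or more normalized counts in every library. Spp1 had 13561 or more and Sox9 351.6 or more, whereas Epcam was low, between 1.63 and 23.0 over all libraries.

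Connexins are membrane proteins that assemble into hemichannels. Hemichannels of adjoining cells dock to form gap junction channels, through which ions, metabolites and second messengers pass. Hepatocytes are coupled mainly by the products of Gjb1 and Gjb2, whereas Gja1 is the connexin of heart muscle, astrocytes, fibroblasts and many cultured cells, and in liver is known mainly from non-hepatocyte cells. Gja4 is known from arterial endothelium and oocytes, Gjb5 from skin and placenta, and Gjc1 from the heart conduction system and vascular smooth muscle. Pannexins form related channels that release ATP and do not usually build gap junctions.

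Gja1 lies on chromosome 10 of GRCm38 (chr10:56377330-56402513, plus strand, GENCODE M21). Gjb2 is on chr14:57098600-57104702 (minus strand), Gjc1 on chr11:102799579-102819700 (minus strand), Gjb1 on chrX:101376378-101385629 (plus strand), Gja4 on chr4:127311421-127314039 (minus strand) and Gjb5 on chr4:127354809-127358181 (minus strand). No exon of these genes overlaps an exon of another annotated gene. The bases before the RefSeq start sites of Gja1 and Gjb2 (GRCm38.p6) are shown because Gja1 is the gene the set was built around and Gjb2 is the tested member that was lower than WT in one single knockout and higher in the other. Each run is 250 bases, ends at the base before the start, and reads 5′ to 3′ on the gene's strand, at chr10:56377050-56377299 (plus strand) for Gja1 and chr14:57104703-57104952 (minus strand) for Gjb2. Capitals mark matches on either strand to the AP-1 motif TGANTCA, the Sp1 motif GGGCGG, the E-box CACGTG or the TATA box TATAAA.
Gja1: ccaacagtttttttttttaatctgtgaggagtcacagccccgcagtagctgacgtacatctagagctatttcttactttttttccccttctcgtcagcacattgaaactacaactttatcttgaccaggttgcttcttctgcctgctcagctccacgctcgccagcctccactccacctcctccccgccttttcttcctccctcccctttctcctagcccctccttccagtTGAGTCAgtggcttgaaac
Gjb2: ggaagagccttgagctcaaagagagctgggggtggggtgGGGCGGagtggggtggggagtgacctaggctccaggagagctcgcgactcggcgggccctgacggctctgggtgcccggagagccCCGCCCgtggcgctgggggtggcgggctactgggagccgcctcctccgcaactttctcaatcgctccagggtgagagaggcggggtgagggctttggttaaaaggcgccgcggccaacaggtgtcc
The Gja1 window held 1 AP-1 match, which began 19 bases before the start, and none of the other motifs. The Gjb2 window held 2 Sp1 matches and no AP-1 match. Among 32851 windows of the same length in the RefSeq promoter table, 6.75% held an AP-1 match, 32.7% an Sp1 match, 6.02% an E-box and 12.4% a TATA box. The GC content was 50% for Gja1 and 69.2% for Gjb2, against a median of 52.4% over all windows. A letter match is a description and shows no binding.

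Gja1 was high in WT and low in every knockout library. Its values in WT were 697, 584, 720.5 and 740.3 normalized counts, in ACLY KO 49.2, 56.8, 64.5 and 49.0, in ACSS2 KO 51.1, 50.7 and 57.8, and in DKO1 69.5, 50.5 and 81.6. The lowest WT library lay above the highest knockout library, and the 3 knockout genotypes overlapped. Means were 685 ± 69.8 for WT, 54.9 ± 7.38 for ACLY KO, 53.2 ± 3.98 for ACSS2 KO and 67.2 ± 15.7 for DKO1. WT was thus 12.5-fold above ACLY KO, 12.9-fold above ACSS2 KO and 10.2-fold above DKO1. The log2 differences from WT, on the scale of log2(normalized count + 1) used for all log2 values here, were -3.62, -3.66 and -3.35, and 5, 6 and 40 of the 12711 genes tested had a lower value in these comparisons. The 3 comparisons share the WT libraries. The 8 stellate cell and fibroblast markers, cells in which Gja1 is known to be expressed, summed to 85544 to 112580 in WT, 81380 to 88584 in ACLY KO, 63154 to 71254 in ACSS2 KO and 99732 to 128000 in DKO1, with Vim giving most of the sum. Its members did not move together. In ACLY KO 4 of the 7 tested markers were higher and 1 lower (median log2 difference 1.53), in ACSS2 KO 3 were higher and 1 lower (median 0.29) and in DKO1 4 were higher and 1 lower (median 1.37). Over all genes tested, 23.8%, 15.1% and 27.9% were called higher in these comparisons, and 24.7%, 11% and 28.1% lower. The collagen gene Col1a1 had 2454 ± 164 normalized counts for ACLY KO against 428 ± 38.5 for WT, whereas Acta2, smooth muscle actin, had 630.4 ± 14.1 against 1657 ± 133. The part of these markers in the Gja1 values was not tested. Because these are bulk libraries, fewer cells with the transcript and less transcript per cell cannot be told apart.

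**Figure D1:**
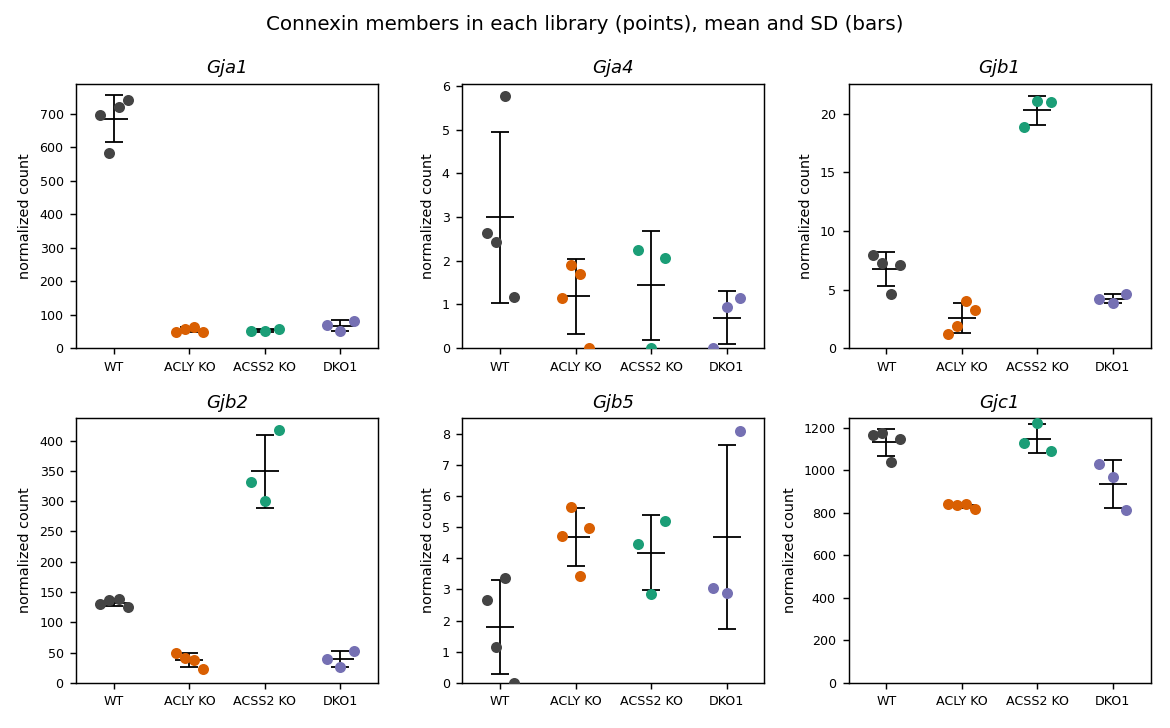
Normalized counts of the 6 connexin members (vertical axes from 0, a scale per gene) in each library of the 4 genotypes (points), with the mean and SD as bars. Gja1 is at 584 to 740.3 in WT and at 49.0 to 81.6 in the knockout libraries, and Gjb1 and Gjb2 are highest in ACSS2 KO.

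Gjb2 and Gjb1, the liver connexins, differed from Gja1 in their order across genotypes. Gjb2 was 130 in WT 1, 137 in WT 2, 138 in WT 3 and 125 in WT 4. It had 49.6, 40.6, 38.5 and 22.3 normalized counts for ACLY KO, 332, 300.3 and 417 in ACSS2 KO, and 39.9, 25.99 and 52.6 in DKO1. WT lay between ACSS2 KO above and the 2 ACLY-deficient genotypes below, with no overlap, and ACLY KO and DKO1 overlapped. The mean was 2.64-fold higher in ACSS2 KO than in WT, and WT was 3.51-fold above ACLY KO and 3.35-fold above DKO1.

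Against WT, Gjb2 fell by 1.84 on the log2 scale in ACLY KO (SE, standard error, 0.238, adjusted p = 2.8e-05 from limma) and by 1.77 in DKO1 (SE 0.257, adjusted p = 6.6e-05). It rose by 1.38 in ACSS2 KO (SE 0.257, adjusted p = 0.0014 from limma). Of all genes tested, 24.7% were called lower in ACLY KO, 28.1% lower in DKO1 and 15.1% higher in ACSS2 KO. DKO1 was 3.16 lower than ACSS2 KO (adjusted p = 6.3e-07 from limma), where 27.8% of all genes were called lower. DKO1 against ACLY KO gave 0.06, with a 95% interval from -0.49 to 0.62 and an adjusted p of 0.88 from limma. The change that came with ACSS2 loss was 1.32 lower in the ACLY-deficient background than in the WT background (interaction, adjusted p = 0.017 from limma), a contrast in which 15.1% of genes were lower and 12% higher. The interaction did not pass without ACSS2 KO replicate 4 (adjusted p = 0.052) or with the replicate number as a block (adjusted p = 0.05).

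Gjb1 stayed low, at 7.97, 7.25, 4.61 and 7.06 normalized counts for WT, 1.17, 1.91, 4.01 and 3.28 in ACLY KO, 18.9, 21.1 and 21.0 in ACSS2 KO, and 4.20, 3.84 and 4.63 in DKO1. The ACSS2 KO libraries were above all others, WT lay above ACLY KO, and DKO1 overlapped with ACLY KO and, by 1 library, with WT. Its mean over all libraries was below the minimum of 10 normalized counts set for testing. Without that filter Gjb1 rose by 1.48 on the log2 scale in ACSS2 KO (adjusted p = 0.0035 from limma), fell by 1.16 in ACLY KO (adjusted p = 0.0048), and differed by -2.03 in DKO1 against ACSS2 KO (adjusted p = 0.00019). In that fit 9.79%, 16.8% and 19.1% of 19485 genes were called in the same directions. In ACSS2 KO, where both liver connexins were highest, Alb (albumin, a hepatocyte product) had 134 ± 4.59 normalized counts against 31.4 ± 3.89 for WT, while Hnf4a, a hepatocyte transcription factor, was 39.8 ± 7.86 against 172 ± 21.95. The summed level of the 8 hepatocyte markers was 230 to 259 in ACSS2 KO, 258 to 381 in WT, 111 to 161 in ACLY KO and 146 to 430.4 in DKO1. These markers did not move together. Apob gave most of the DKO1 sum, at 94.3 to 387, while Alb (11.3 ± 4.71) and Hnf4a (22.4 ± 5.27) had their lowest means in DKO1. The part of these markers in the connexin results was not tested.

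Gjc1 had the highest normalized count per kb of longest transcript among the 6 members in every library. It had 1169, 1174, 1040.3 and 1147 normalized counts for WT, 844, 835, 843 and 817 in ACLY KO, 1130.2, 1224 and 1092 in ACSS2 KO, and 1030.3, 969 and 813 in DKO1. ACLY KO lay below WT and ACSS2 KO without overlap, and the DKO1 libraries were spread from below ACLY KO to just under the lowest WT library. Gjc1 fell by 0.44 in ACLY KO (SE 0.0749, adjusted p = 0.00029 from limma). In ACSS2 KO it differed from WT by 0.02 (95% interval from -0.15 to 0.20, adjusted p = 0.89 from limma), a comparison in which 11% of all genes were called lower. In DKO1 it was 0.28 lower than WT (adjusted p = 0.010 from limma), but this was lost with equal library totals (0.21 lower, adjusted p = 0.11) and when only these groups were fitted (adjusted p = 0.078). DKO1 was 0.30 below ACSS2 KO (adjusted p = 0.011 from limma), which was lost when only these groups were fitted (adjusted p = 0.096) and without ACSS2 KO replicate 2 (adjusted p = 0.052). Between DKO1 and ACLY KO the difference was 0.16 (adjusted p = 0.17 from limma), and 0.26 (adjusted p = 0.0091) without DKO1 replicate 4, the lowest DKO1 library, in which the deviation of genes from the genotype mean had a rank correlation of -0.654 with transcript length. This was the strongest trend of any library, and the other libraries lay between -0.562 and 0.623. Deviations within a genotype balance each other, so 0.623 and 0.571 in DKO1 replicates 1 and 3 are not independent of it. In other genotypes the most negative trends were -0.562 in WT replicate 2 and -0.544 in ACLY KO replicate 4. In DKO1 against ACLY KO 14.3% of all genes were called higher and 13.6% lower. The interaction for Gjc1 was 0.14 (adjusted p = 0.40 from limma).

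Gja4 and Gjb5 stayed near the lowest values that the libraries hold. Gja4 was between 1.16 and 5.76 normalized counts for WT, 0 and 1.89 in ACLY KO, 0 and 2.25 in ACSS2 KO, and 0 and 1.14 in DKO1. Gjb5 was between 0 and 3.37 in WT, 3.43 and 5.64 in ACLY KO, 2.87 and 5.21 in ACSS2 KO, and 2.88 and 8.09 in DKO1. Each knockout genotype overlapped with WT for both genes, except that every ACLY KO library lay above every WT library for Gjb5 and every DKO1 library lay below every WT library for Gja4. Without the filter on low values, Gjb5 was 1.22 higher in ACLY KO (adjusted p = 0.043 from limma), where 18.5% of 19485 genes were called higher. Gja4 did not pass in any comparison without the filter.

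Of the 12 other connexin genes reported here, only Gja5 reached the minimum mean. Gjd2, Gjd3 and Gje1 were listed at 0 in every library, and the remaining 8 were below 10 normalized counts in every library. Gja5, a connexin of arterial endothelium and the atria, moved in opposite directions in the single knockouts. Its means were 38.6 ± 6.64 normalized counts for WT, 71.2 ± 11 for ACLY KO, 19.2 ± 2.18 for ACSS2 KO and 96.8 ± 18.6 for DKO1. It rose by 0.87 in ACLY KO (adjusted p = 0.00067 from limma), where 23.8% of all genes were called higher, fell by 0.97 in ACSS2 KO (adjusted p = 0.0013), and rose by 1.30 in DKO1 (adjusted p = 4.1e-05), where 27.9% of all genes were called higher. DKO1 was 2.27 above ACSS2 KO (adjusted p = 4.6e-07 from limma), in which comparison 25.9% of all genes were called higher. Between DKO1 and ACLY KO, whose libraries overlapped, the Gja5 difference was 0.43 (95% interval from 0.05 to 0.82, adjusted p = 0.091 from limma). The endothelial markers Pecam1, Cdh5, Kdr and Tek summed to 18.6 to 28.3 in WT, 77.1 to 92.3 in ACLY KO, 10.5 to 18.3 in ACSS2 KO and 40.2 to 51.2 in DKO1. Not all of these markers moved together, although Pecam1 and Cdh5 were both higher in ACLY KO and DKO1 than in WT. Cdh5 had a mean of 1.54 in WT, 18.9 for ACLY KO, 1.81 for ACSS2 KO and 6.63 for DKO1. Pecam1 rose by 2.97 in ACLY KO and by 2.27 in DKO1 (adjusted p = 1.2e-06 and 2.5e-05 from limma) and was 0.33 higher in ACSS2 KO (adjusted p = 0.47). Kdr had a mean of 12.9 in WT, 2.21 for ACLY KO, 3.84 for ACSS2 KO and 2.05 for DKO1, so the lower sum in ACSS2 KO came mainly from Kdr. Tek was below 2 in every library, and the part of these markers in the Gja5 result was not tested. Gja5 shares 165 exon bases with Gpr89 on the opposite strand, and the use of strand in counting is not given in the sources used here.

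Panx1, the one pannexin that reached the minimum mean, had 209 ± 32.2 normalized counts for WT, 23.8 ± 2.58 for ACLY KO, 138 ± 15.0 for ACSS2 KO and 28.3 ± 8.46 for DKO1. It fell by 3.07 in ACLY KO (adjusted p = 2.1e-08 from limma) and by 2.88 in DKO1 (adjusted p = 7.8e-08). In ACSS2 KO it was 0.59 lower (adjusted p = 0.042 from limma), a call that was lost when any library of WT other than replicate 1, of ACLY KO or of ACSS2 KO was left out (adjusted p up to 0.16).

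**Figure D2:**
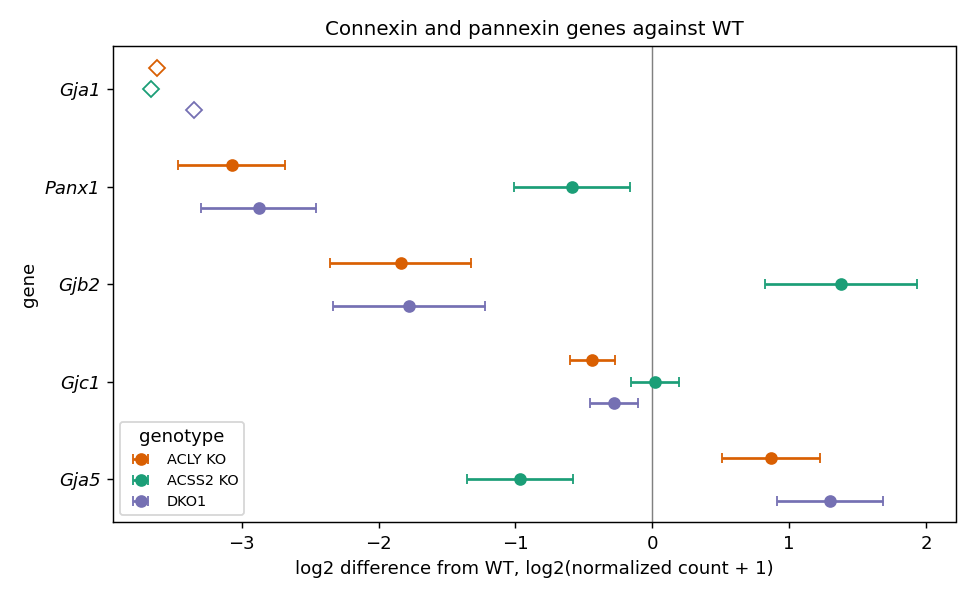
Log2 difference from WT of log2(normalized count + 1) (horizontal axis) for Gja1, Panx1, Gjb2, Gjc1 and Gja5 (vertical axis) in ACLY KO, ACSS2 KO and DKO1. Circles carry 95% intervals from limma and Gja1, shown as open diamonds, carries none because it was chosen on these values. Gja1 lies at -3.66 to -3.35 in the 3 genotypes, while Gjb2 and Gja5 lie on opposite sides of 0 in the single knockouts.

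Levels of different connexins were compared after division by the longest annotated transcript of each gene. The sum was taken over the 18 connexin genes reported here and does not stand for the whole family. It was 779 ± 24 normalized counts per kb in WT, 423 ± 12.5 for ACLY KO, 683 ± 12.6 for ACSS2 KO and 481 ± 36.8 for DKO1. Gja1 made up 27.6% ± 2.72 of that sum in WT, and 4.08% ± 0.499 for ACLY KO, 2.45% ± 0.176 for ACSS2 KO and 4.44% ± 1.29 for DKO1. Gjc1 held 62.8% ± 2.61 for WT, 85.4% ± 1.28 for ACLY KO, 72.7% ± 3.84 for ACSS2 KO and 84.04% ± 3.83 for DKO1. The shares of Gja1 and Gjc1 did not overlap in WT. With the mean transcript length in place of the longest one the Gja1 share in WT was 46.6%, level with the 46.7% of Gjc1, since the annotated Gja1 transcripts average 1230 bases and the longest has 3182. Gjb2 held 7.08% ± 0.546 for WT, 21.3% ± 3.65 for ACSS2 KO, 3.69% ± 1.04 for ACLY KO and 3.47% ± 1.39 for DKO1. In ACSS2 KO its per-length level of 145 ± 25.1 normalized counts per kb lay above the 16.7 ± 1.25 of Gja1, whereas in WT the order was the opposite, with 55.1 ± 2.62 for Gjb2 and 215 ± 21.9 for Gja1.

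**Figure D3:**
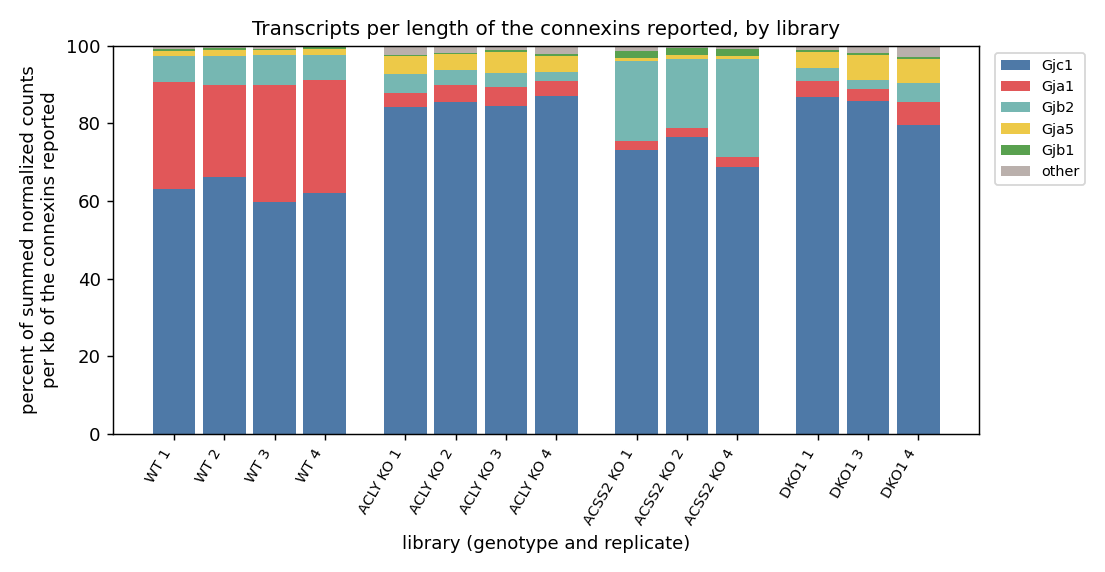
Share of the normalized counts per kb of longest transcript, summed over the 18 connexins reported here (vertical axis, percent), held by each gene in each of the 14 libraries (horizontal axis). The Gja1 segment takes 27.6% on average in WT and 2.45 to 4.44% in the knockout genotypes, and the Gjb2 segment widens to 21.3% in ACSS2 KO.

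The genes around Gja1 were described as well. Gja1 was chosen for its large difference from WT, so smaller differences in its neighbours follow largely from that choice. The 10 nearest tested neighbours on chromosome 10 lay up to 2768 kb from it, the nearest being Tbc1d32, a gene linked to cilia, at 149 kb. Across these 10 genes and the 3 knockout genotypes the log2 differences from WT were between -0.61 and 0.59, except that Fam184a was 2.80 higher in ACSS2 KO (adjusted p = 0.00015 from limma). Hsf2, a heat shock transcription factor, was lower in all 3 genotypes, by 0.35, 0.39 and 0.28 (adjusted p = 0.00023, 0.00053 and 0.0024 from limma). The median over the 612 tested genes of chromosome 10 was -0.09 for ACLY KO, -0.003 for ACSS2 KO and -0.17 for DKO1.

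**Figure D4:**
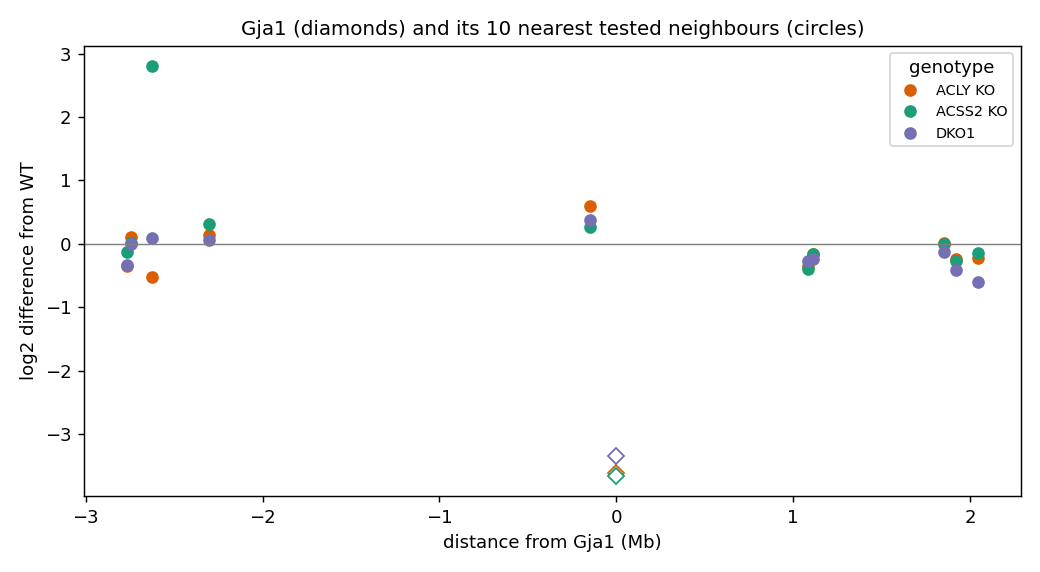
Log2 difference from WT (vertical axis) of Gja1 (open diamonds, at 0) and of its 10 nearest tested neighbours (circles) against distance from Gja1 in Mb (horizontal axis), by genotype. Gja1 lies at -3.66 to -3.35, and the neighbours lie between -0.61 and 0.59 except Fam184a at 2.80 in ACSS2 KO.

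Likeness to Gja1 was measured as the Pearson correlation of log2(normalized count + 1) over the 14 libraries, over the 11036 genes whose mean was 50 or more. The libraries fall into 4 genotypes, so this is a description of the shape across genotypes. The 4 most like genes were Scd1 (r = 0.993), Itpripl2 (r = 0.981), Lad1 (r = 0.980) and Inhba (r = 0.969). Scd1 encodes a stearoyl-CoA desaturase, Lad1 a protein of epithelial basement membranes and Inhba a subunit of activins. Scd1 had a mean of 147 normalized counts for WT, 19.8 for ACLY KO, 19.5 for ACSS2 KO and 20.2 for DKO1. Among the other members Gjc1 had r = 0.497 and Gjb2 r = 0.269.

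Proteins that bind connexins or govern their turnover were described from a list of 20 genes, of which 18 were tested. In ACLY KO 4 were higher and 6 lower (median log2 difference -0.09, against -0.007 over all genes), in ACSS2 KO 2 were higher and 6 lower (median -0.09, against 0.001), and in DKO1 3 were higher and 8 lower (median -0.27, against 0.003). The calls over all genes tested, higher then lower, made up 23.8% and 24.7% for ACLY KO, 15.1% and 11% for ACSS2 KO, and 27.9% and 28.1% for DKO1. Dbn1, the actin binding protein drebrin, fell by 1.48 in ACLY KO and by 0.94 in DKO1 and rose by 0.67 in ACSS2 KO (adjusted p = 2.4e-08, 2.8e-06 and 0.00018 from limma). Cav1, the coat protein of caveolae, fell in all 3 genotypes, by 0.55, 0.71 and 0.92 in ACLY KO, ACSS2 KO and DKO1 (adjusted p = 0.00051, 0.00035 and 1.3e-05 from limma). Prkca, a protein kinase C, rose by 1.38 in ACLY KO (adjusted p = 1.3e-05 from limma) and by 0.54 in DKO1 (adjusted p = 0.019). In DKO1 replicate 4 Prkca had 1060 normalized counts, inside the WT range of 886 to 1176. Csnk1e, the protein kinase casein kinase 1 epsilon, fell in all 3 genotypes, by 0.61, 0.45 and 0.44 (adjusted p = 5.1e-05, 0.0027 and 0.0012 from limma).

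Among 15 tested genes of adherens junctions and desmosomes, 10 were lower and 2 higher in ACLY KO (median -0.38), 6 lower and 1 higher in ACSS2 KO (median -0.14) and 10 lower and 3 higher in DKO1 (median -0.50). The shares called lower over all genes were 24.7%, 11% and 28.1%, and those called higher 23.8%, 15.1% and 27.9%. Cdh1, which encodes E-cadherin, had 547 ± 12.6 normalized counts for WT, 58.7 ± 9.05 for ACLY KO, 191 ± 19.2 for ACSS2 KO and 65.2 ± 2.31 for DKO1. It fell by 3.21, 1.52 and 3.05 (adjusted p = 1.5e-10, 8.4e-07 and 4.7e-10 from limma). Dsg2, a desmosomal cadherin, fell by 1.51 in ACLY KO and by 1.78 in DKO1 (adjusted p = 1.4e-06 and 6.2e-07 from limma) and differed by 0.25 in ACSS2 KO (adjusted p = 0.26). Nectin3, an adhesion molecule, rose by 0.34 in ACLY KO and by 0.42 in DKO1 and fell by 0.72 in ACSS2 KO (adjusted p = 0.00015, 4.4e-05 and 1.8e-06 from limma). Pkp2, a plakophilin of desmosomes, fell in all 3, by 0.33, 0.20 and 0.46 (adjusted p = 0.00024, 0.026 and 2.6e-05 from limma).

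Of 9 tested tight junction genes, 4 were lower and 1 higher in ACLY KO (median -0.26), 3 lower and 3 higher in ACSS2 KO (median 0.22) and 3 lower and 2 higher in DKO1 (median -0.35). Over all genes 24.7%, 11% and 28.1% were called lower and 23.8%, 15.1% and 27.9% higher, and the DKO1 counts are near those shares. Cldn2, a claudin that forms cation pores, rose in all 3 genotypes, by 0.82, 0.44 and 2.37 (adjusted p = 1.1e-06, 0.0013 and 2.4e-10 from limma). Marveld2, the tricellular junction protein tricellulin, fell, with log2 differences of -2.61 in ACLY KO and -3.12 in DKO1 (adjusted p = 1.6e-07 and 6.9e-08 from limma), and was 0.13 lower in ACSS2 KO (adjusted p = 0.73). Cgn, the junction protein cingulin, fell by 0.49, 0.67 and 0.84 (adjusted p = 0.0050, 0.0022 and 0.00013 from limma). Cldn12, a further claudin, was 0.06 lower in ACLY KO (adjusted p = 0.35 from limma) and fell by 0.27 in ACSS2 KO and by 0.35 in DKO1 (adjusted p = 0.0030 and 0.00014).

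**Figure D5:**
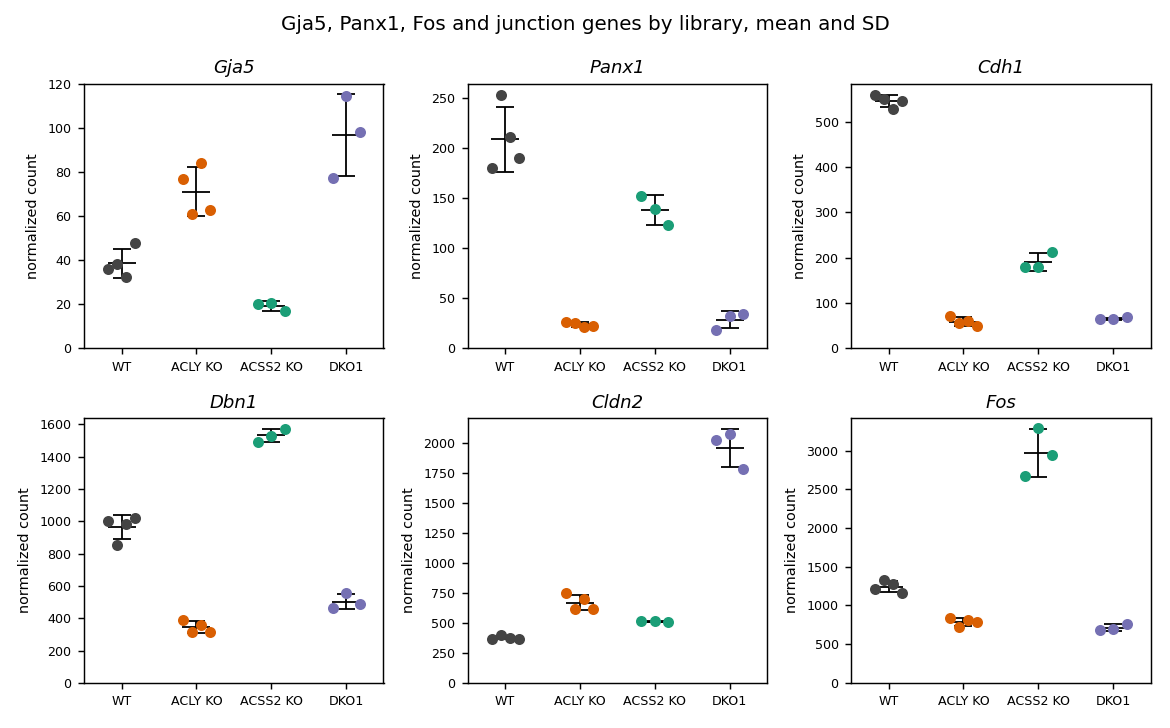
Normalized counts of Gja5, Panx1, Cdh1, Dbn1, Cldn2 and Fos (vertical axes from 0, a scale per gene) in each library of the 4 genotypes (points), with the mean and SD as bars. Panx1 and Cdh1 are lower in ACLY KO and DKO1 than in ACSS2 KO, Dbn1 and Fos are highest in ACSS2 KO, Cldn2 is highest in DKO1, and Gja5 overlaps between ACLY KO and DKO1.

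The last list held 16 transcription factors linked to connexin genes, of which 13 were tested. In ACLY KO 5 were lower and 1 higher (median -0.31), in ACSS2 KO 2 were lower and 2 higher (median 0.04), and in DKO1 8 were lower and 1 higher (median -0.49). For comparison, 24.7%, 11% and 28.1% of all genes were called lower and 23.8%, 15.1% and 27.9% higher, and the ACSS2 KO counts are near those shares. Fos, a subunit of AP-1, fell by 0.65 in ACLY KO and by 0.80 in DKO1 and rose by 1.25 in ACSS2 KO (adjusted p = 1.2e-05, 3.7e-06 and 3.6e-07 from limma). Fosl1, another AP-1 subunit, fell by 2.43 in ACSS2 KO (adjusted p = 2.4e-08 from limma), was 0.04 lower in ACLY KO (adjusted p = 0.81) and fell by 0.32 in DKO1 (adjusted p = 0.032). Hnf4a fell in all 3 genotypes, by 2.59, 2.10 and 2.90 (adjusted p = 8e-07, 3.9e-05 and 5.5e-07 from limma). Snai2, a repressor of epithelial genes, rose by 0.79 in ACLY KO and by 1.38 in DKO1 (adjusted p = 0.00013 and 1.6e-06 from limma) and was 0.25 higher in ACSS2 KO (adjusted p = 0.19). The related Snai1 had another order, with means of 22.3 ± 8.59 normalized counts for WT, 7.48 ± 2.62 for ACLY KO, 33.5 ± 4.23 for ACSS2 KO and 11.5 ± 4.87 for DKO1.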

How the data were processed

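RNA-seq was analysed in 14 libraries, grouped by genotype from the sample labels. The authors made poly(A) libraries with a directional kit, sequenced 75-base single-end reads and mapped them with STAR to GRCm38. The deposited signal values are per-gene counts normalized by the authors, with DESeq2 1.0.1 and DESeq named in the submitters' processing notes. Values need not be whole, and count models were not applied. How reads were assigned to genes, and the annotation used, are not given in the sources used here. Taking the commonest low value as 1 read, depths of 19164067 to 33522192 reads were implied. Errors are those between the libraries of a genotype, without counting intervals.

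Of 24972 symbols, 26 appear as dates and were not matched. The 12711 genes with a mean of at least 10 were tested with limma 3.58.1 (intensity trend) in R 4.3.3 on log2(value + 1), with a coefficient per genotype, a spread shared by all 14 libraries and Benjamini-Hochberg adjustment over all genes tested. A gene was called at an adjusted p under 0.05. "Rose" and "fell" are used for calls, and for Gja1 as a description. The interaction was the DKO1 minus ACLY KO difference less the ACSS2 KO minus WT difference. Comparisons against WT share its libraries. The procedure was tested on simulated data. Positions and transcript lengths came from GENCODE M21, and promoter windows from RefSeq. Connexin windows on chromosome 18, where Gjd4 lies, were not used, and 12 of the 18 connexin genes reported had a window that was used.

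The members and lists were chosen with earlier results of these data known. Named genes were the members, other connexins and pannexins, up to 4 tested genes per list, ranked by adjusted p against WT, the 4 genes most like Gja1 and its 10 nearest tested neighbours. Hsf2, Tbc1d32 and Fam184a were singled out among the neighbours after their values were seen. Snai1 was named beside Snai2 outside these rules, also after its values were seen. Some genes that these rules name are not reported here. Of the 20 connexin partners 19 were listed under the symbol used. A list of 4 markers of macrophages and other white blood cells summed to 1072.2 to 1543.3 in the libraries, most of it Csf1r. Alternatives covered the added constant, filters, groups in the fit, a replicate block, scaling, transcript length, call limits and each library left out. Leaving out both WT replicate 2 and DKO1 replicate 4 was chosen after seeing the data.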

Additional observations from a re-analysis of the deposited data

Results flagged for a closer look

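The change that came with loss of ACSS2 differed between ACLY-deficient and WT backgrounds for 2 connexins, by the interaction in limma. Of the connexins reported, 4 were tested, and Gja1 among them was not counted. In this contrast 12% of all genes tested were called higher and 15.1% lower. The difference between backgrounds was -1.32 on the log2 scale for Gjb2 (adjusted p = 0.017) and 1.40 for Gja5 (adjusted p = 0.0012). For Gjb2 the call was lost with the replicate number as a block (adjusted p = 0.05) and without ACSS2 KO replicate 4 (adjusted p = 0.052). Gjb2 lay above all WT libraries in 3 of 3 ACSS2 KO libraries, whereas the DKO1 and ACLY KO libraries overlapped. Among 16 gene and genotype groups of 4 libraries, 0 had a library that stood apart from the others by Dixon's criterion.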

How the results depend on the processing

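The Gja1 difference from WT lay between -3.70 and -3.57 for ACLY KO, -3.73 and -3.62 for ACSS2 KO, and -3.50 and -3.16 for DKO1 when single libraries were left out, and moved by less than the spread between libraries under every alternative. Same-numbered libraries of different genotypes correlated between -0.431 and 0.447, with 5 of 18 pairs over 0.1, so the numbers were not taken to pair them. With the replicate number as a block the called members for the interaction went from 1 to 0 (Gjb2, adjusted p = 0.05), and the Panx1 call in ACSS2 KO was lost (adjusted p = 0.08). Without the filter on low values 4 members were called in ACLY KO and 2 in ACSS2 KO, in place of 2 and 1, because Gjb1 and Gjb5 were then tested. In that fit 18.5% of 19485 genes were called higher and 16.8% lower in ACLY KO, and 9.79% higher in ACSS2 KO. Fitting only the groups compared left 1 of 2 called members in DKO1 against WT and 1 of 2 in DKO1 against ACSS2 KO, and equal library totals left 1 in DKO1 against WT. Calls at an absolute log2 difference over 1.5 and an adjusted p under 0.01 numbered 1 for ACLY KO, 0 for ACSS2 KO, 1 for DKO1 against WT, 1 against ACSS2 KO and 0 for the interaction. The share of all genes within those limits was not counted, so these numbers have no background beside them. Over single libraries left out, called members numbered 0 to 1 in DKO1 against ACLY KO (1 without DKO1 replicate 4), 1 to 2 in DKO1 against ACSS2 KO (1 without ACSS2 KO replicate 2) and 0 to 1 for the interaction (0 without ACSS2 KO replicate 4). Leaving out both WT replicate 2 and DKO1 replicate 4, chosen after seeing the data, gave 1 in DKO1 against ACLY KO and 2 for the interaction. With the mean transcript length the Gja1 shares were 46.6, 8.74, 5.54 and 9.42% for WT, ACLY KO, ACSS2 KO and DKO1, the WT share of Gjb2 was 4.63%, and the Gjc1 shares were 46.7, 80.5 and 78.6% for WT, ACLY KO and DKO1. Equal library totals moved the median log2 difference of all genes to 0.10 for ACLY KO against WT, 0.11 for ACSS2 KO and -0.16 for the interaction. No called result changed direction. Depth limits Gja4, Gjb1 and Gjb5, whose fold changes are shrunk by the added 1.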
